A study of Mus musculus with 4 samples.

Results

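The genes of the DNA replication machinery were followed in differentiating C2C12 cells, an established mouse myoblast line, with and without interferon-γ (IFN-γ). The set holds 36 genes, chosen by their known role, in 4 groups: origin licensing, the replicative helicase, the polymerases with their clamp and clamp loader, and nucleotide supply. All 36 had a probe on the array that was bright enough to test, out of 15673 genes tested in all. They were represented by 39 probes, of which 38 were tested; 33 genes had 1 probe and 3 genes had 2. Each gene is shown by its brightest tested probe.

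Treated cells had IFN-γ at 1 ng/ml in the differentiation medium for 3 days, and control cells had the same medium without the cytokine. The labels give the horse serum of that medium as 2% in one field and 10% in another. RNA of treated cells carried the dye Cy5 and RNA of control cells the dye Cy3 on each of 4 arrays, with no array the other way round, so an effect of the dye and an effect of the treatment cannot be told apart. The labels number the treated samples as biological replicates 1 to 4 and leave unsaid if each control came from its own culture. The p-values therefore cover the array-to-array spread alone, which may in part be technical. Since RNA came from whole cultures, a change in the number of cells of a kind and a change in RNA per cell cannot be told apart.

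DNA replication starts where the origin recognition complex, with Cdc6 and Cdt1, loads the ring of Mcm2 to Mcm7 onto DNA. Cdc45 and the GINS complex turn that ring into the active helicase, polymerase alpha with primase lays down primers, and polymerases delta and epsilon copy the strands while held by the clamp Pcna, which the Rfc complex loads. Most of these genes are known targets of E2F transcription factors and are made ahead of S phase. Myoblasts are known to leave the cell cycle when they form myotubes, and transcripts of the replication machinery fall as they do so.

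Values are log2 ratios of treated over control after loess normalisation within each array, given for replicates 1 to 4 or as mean ± SD over 4 arrays, and a gene is said to have risen or fallen where the limma adjusted p was under 0.05. Expression rose for 25 of the 36 genes (69.4%) and fell for 0, and the other 11 did not pass. Over all tested genes the share that rose in the same fit was 19.8% and the share that fell was 13.9%. Without adjustment 29 of the 36 rose and 0 fell in limma. The share of all tested genes at an unadjusted p in limma is not given, here or for the lists below. The unpaired test named in the study's methods gave 23 and 0 after adjustment, beside 16.4% and 9.52% of all tested genes. At an unadjusted p under 0.05 that test passed 30 of the 36, and 6279 of all 15673 tested genes in either direction. The median ratio of the 36 genes was 0.42, and that of all tested genes was 0.026. The rises were small, from 1.18-fold to 2.16-fold, and 1 of the 36 genes, Mcm4, passed with 2-fold or more, beside 1.79% of all tested genes; without replicate 2 its mean was just below 2-fold, at 0.98. With Feature Extraction's own ratios 3 of the 36, Orc1, Pola2 and Mcm4, passed with 2-fold or more, beside 4.96% of all tested genes. With those ratios 21 of the 36 rose, beside 19.2% of all tested genes. Without replicates 1, 3 or 4 the count was 21 in each case, beside 13.2%, 10.2% and 11.5% of all tested genes.

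On single arrays the medians of the 36 genes were 0.36, 0.48, 0.47 and 0.42, against 0.027, 0.016, 0.037 and 0.039 for all tested genes. The ratio was above 0 on all 4 arrays for 30 of the 36 genes (83.3%), and for 29.5% of all tested genes. Replicate 2 held the highest value for 16 of the genes and the lowest for 11, and replicate 1 held the lowest for 18. The genes' median SD over arrays was 0.14, near the 0.16 of all tested genes.

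**Figure D1:**
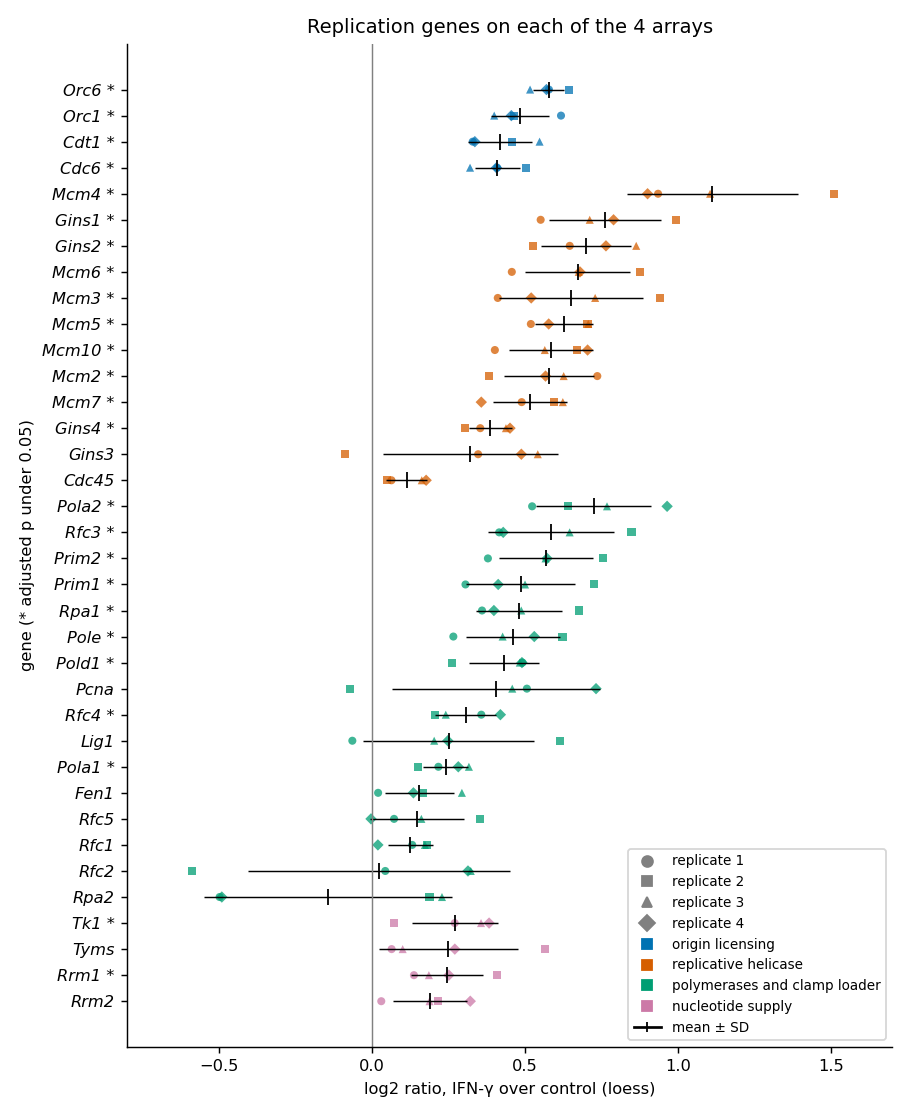
Log2 ratio of IFN-γ over control (horizontal axis, loess) for the 36 replication genes (rows, in 4 coloured groups), with a mark for each of the 4 arrays and a bar for the mean ± SD; stars mark an adjusted p under 0.05. Mcm4 lies farthest right at 1.11, 25 genes carry a star, and Rpa2 is the gene with a mean below 0; under centring on the tested genes Orc1 and Cdc45 turned negative.

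How the arrays are centred matters for small ratios. Centring each array on the median of all its probes, in place of loess, put the median of all tested genes at 0.70 and that of the replication genes at 1.33, and 35 of the 36 rose there, where 67% of all tested genes rose. Centring on the median of the tested genes left all tested genes at 0.022 and the replication genes at 0.66, with 30 risen and 2 fallen, where 30% of all tested genes rose and 35% fell. The replication genes lay 0.40 above all tested genes under loess, 0.64 above under both kinds of centring and 0.38 above with Feature Extraction's ratios, all as differences of medians on the log2 scale. Both kinds of centring subtract a single value per array from the same ratios. Their equal difference therefore follows from the method and is not a separate check. In each of these settings 34 of the 36 genes lay above the median of all tested genes, a count that both kinds of centring share for the same reason. Among called genes of the whole array, 58.8% were higher under loess, 79.9% under centring on all probes and 46.2% under centring on the tested genes.

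**Figure D2:**
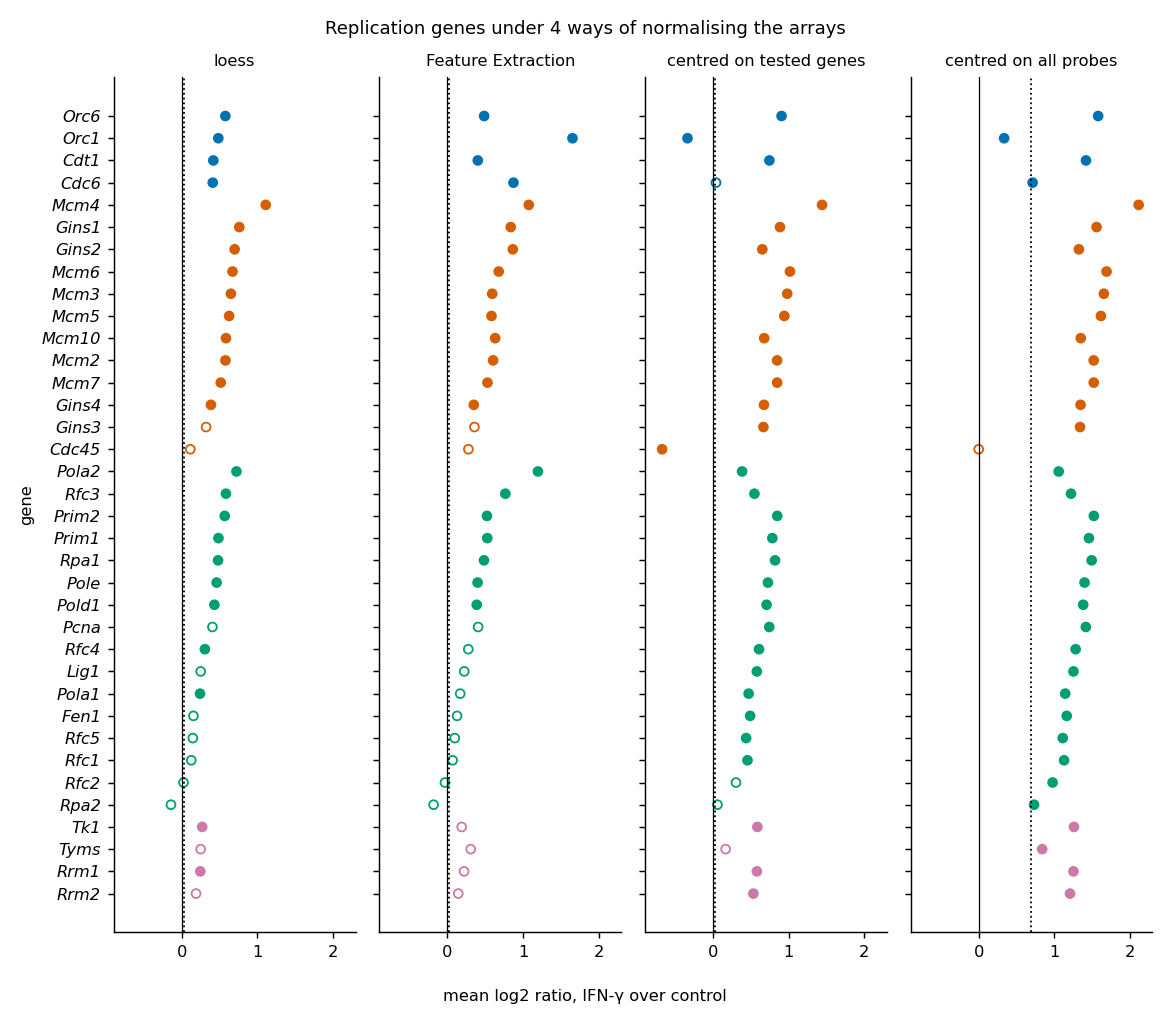
Mean log2 ratio of IFN-γ over control (horizontal axis) of the 36 genes (rows, coloured by group as origin licensing blue, helicase orange, polymerases green, nucleotide supply pink) under 4 normalisations; filled circles passed the test and the dotted line is the median of all tested genes. In each panel 34 of the 36 genes lie right of the dotted line, while the dim genes Orc1, Cdc6 and Cdc45 fall to −0.34, 0.039 and −0.67 when arrays are centred on the tested genes. Both centred panels hold the same ratios up to a shift of each array, so their equal count follows from the method.

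E2F factors are known to bind letters of the form TTTCGCGC or TTTGGCGC, and these 8 letters were searched on both strands in RefSeq promoter windows of the GRCm38.p6 assembly, from 250 bases before to 50 bases after the annotated start. Windows were at hand for 29 of the 36 genes, without Mcm4, Gins1, Gins2, Gins4, Prim2, Pole and Rfc2. The letters occurred in 9 of the 29 (31%), and in 0.929% of all 27025 genes with a window. Of the 9 genes, 8 were among the 19 genes with a window that rose, and 1, Lig1, was among the 10 that did not pass. The stretches below are shown because they hold those letters, which are in capitals, 5′ to 3′ on the strand of the gene.
Orc1 (chr4:108579419-108579442, plus strand): ggttagtgGCGCGAAAagttttct
Cdt1 (chr8:122568039-122568062, plus strand): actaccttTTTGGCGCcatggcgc
Mcm3 (chr1:20820263-20820282, minus strand): tgggaagtTTTGGCGCcaag
Mcm5 (chr8:75109348-75109375, plus strand): ccaagaacTTTCGCGCCAAAacgtccag
Mcm6 (chr1:128359737-128359760, minus strand): tggacgggTTTGGCGCgaagtagc
Mcm7 (chr5:138171852-138171875, minus strand): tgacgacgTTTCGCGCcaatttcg
Pola1 (chrX:93632278-93632301, minus strand): atcacaggGCGCCAAAtgcactcc
Rfc3 (chr5:151651203-151651226, minus strand): tcgcacgcTTTCGCGCtcgcggga
Lig1 (chr7:13278844-13278867, plus strand): caaagtgcGCGCGAAAtctgtgtg
Counted in bases from the start, the match began at −27 in Orc1, −153 in Mcm5, −47 in Mcm6, −138 in Pola1 and −10 in Rfc3. It began after the start in Cdt1, Mcm3, Mcm7 and Lig1. In Mcm5 a match on each strand overlaps in 1 run of capitals. A match is a stretch of letters and not a measured site.

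Other letters searched on both strands were those of the CCAAT box (CCAAT), which is bound by NF-Y, the cell cycle homology region (TTTGAA), and the interferon-stimulated response element (GAAA, any 2 bases, then GAAA). CCAAT occurred in 65.5% of the 29 genes and 41.1% of all genes, and TTTGAA in 13.8% and 20.2%. The letters of the response element occurred in 0 of the 29 and in 3.99% of all genes. E2F and CCAAT letters can overlap, as they do in Mcm7. Promoter windows of the replication genes had a median GC content of 57.67%, and all windows 52.67%.

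**Figure D3:**
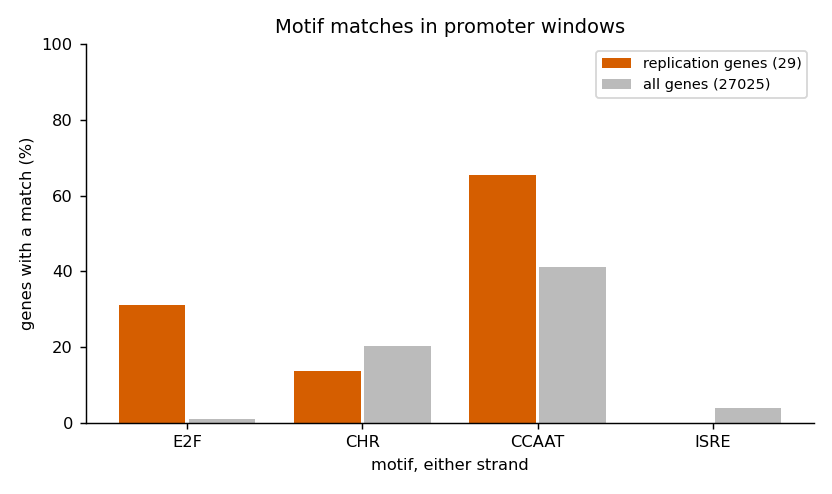
Share of genes (vertical axis, percent) with at least 1 match to each searched motif on either strand of the promoter window, for the 29 replication genes with a window and for all 27025 genes. E2F letters stand at 31% against 0.929%, and the interferon-stimulated response element at 0 against 3.99%.

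The 250 bases before the start are shown for the gene with the largest rise under loess in each group among those with a window, with E2F and CCAAT letters on either strand in capitals (ATTGG is CCAAT read on the other strand). Mcm6 holds 2 runs of E2F letters and 2 CCAAT boxes, Orc6 holds a CCAAT box, and no searched letters occur in these stretches of Pola2 and Tk1, whose expression also rose.
Orc6 (chr8:85299382-85299631, plus strand): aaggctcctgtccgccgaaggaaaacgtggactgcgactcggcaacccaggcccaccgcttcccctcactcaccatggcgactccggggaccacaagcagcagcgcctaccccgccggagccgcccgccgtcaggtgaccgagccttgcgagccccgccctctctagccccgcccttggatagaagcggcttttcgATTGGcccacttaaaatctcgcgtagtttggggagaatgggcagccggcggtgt
Mcm6 (chr1:128359706-128359955, minus strand): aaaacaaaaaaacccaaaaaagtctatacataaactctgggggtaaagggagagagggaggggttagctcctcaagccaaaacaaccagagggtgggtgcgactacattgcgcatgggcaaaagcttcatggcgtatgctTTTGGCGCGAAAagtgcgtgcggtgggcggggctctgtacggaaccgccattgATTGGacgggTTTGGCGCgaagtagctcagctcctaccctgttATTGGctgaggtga
Pola2 (chr19:5964207-5964456, minus strand): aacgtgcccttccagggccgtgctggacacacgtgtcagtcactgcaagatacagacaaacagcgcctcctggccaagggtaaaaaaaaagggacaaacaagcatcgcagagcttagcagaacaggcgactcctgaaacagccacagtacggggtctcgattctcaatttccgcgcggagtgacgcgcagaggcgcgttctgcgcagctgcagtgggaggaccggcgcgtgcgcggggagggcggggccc
Tk1 (chr11:117826015-117826264, minus strand): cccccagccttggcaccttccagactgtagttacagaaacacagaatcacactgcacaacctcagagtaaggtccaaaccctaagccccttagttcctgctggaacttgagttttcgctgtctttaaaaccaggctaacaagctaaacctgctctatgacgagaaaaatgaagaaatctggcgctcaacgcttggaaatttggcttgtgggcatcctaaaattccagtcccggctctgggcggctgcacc

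All 4 origin licensing genes rose under loess, whereas centring on the tested genes gave Orc1 as fallen and Cdc6 as not passed. Orc1 entered the test through Cy5, the channel in which it was brighter. With both channels required above background on all arrays it dropped out, and 3 of 3 licensing genes rose. Under that rule 24 of 35 genes of the whole set rose, beside 21.8% of all genes tested there. The median of the 4 licensing genes was 0.45 and the 4 array medians were 0.49, 0.48, 0.46 and 0.43. Orc6, the smallest subunit of the origin recognition complex, had ratios of 0.58, 0.64, 0.52 and 0.57, a mean of 0.58 ± 0.05 and an adjusted p of 0.0018. All 4 arrays lay close together, and Orc6 had the smallest SD of the group. Cdt1, the loading factor that brings the Mcm ring to origins, had 0.33, 0.46, 0.55 and 0.34, with 0.42 ± 0.10 and an adjusted p of 0.0067. Its replicates 2 and 3 were the higher ones and all 4 lay above 0.

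Orc1, the ATPase that starts origin recognition and carries the E2F letters shown above, had 0.62, 0.46, 0.40 and 0.46, with a mean of 0.48 ± 0.09 and an adjusted p of 0.0039. This gene was dim: the raw spot medians in Cy3 were 54, 54, 60 and 64, well above background on 1 of 4 arrays, and those in Cy5 were 173, 134, 211.5 and 193. Its ratio was 1.66 with Feature Extraction's values and −0.34 when arrays were centred on the tested genes, with an adjusted p of 0.040. Cdc6, the ATPase that helps load the ring, had 0.41, 0.50, 0.32 and 0.41, with a mean of 0.41 ± 0.07 and an adjusted p of 0.0055. It was dim as well, with Cy3 intensities of 76 to 108, and its ratio of 0.039 under centring on the tested genes did not pass. Its second probe had 0.67 ± 0.29.

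The helicase group had a median of 0.61; 10 of its 12 genes rose, Gins3 and Cdc45 did not pass, and under centring on the tested genes 11 rose and Cdc45 fell. All 6 subunits of the Mcm ring rose, from 0.52 for Mcm7 to 1.11 for Mcm4. Mcm4 had ratios of 0.93, 1.51, 1.10 and 0.90, with a mean of 1.11 ± 0.28, a 2.16-fold rise, and an adjusted p of 0.0016. It was the gene with the highest ratio of the 36 on arrays 1 to 3, and Pola2 was on array 4. Before any correction its spot intensity was 1805, 1156, 884 and 1490 in the control channel. In the treated channel it was 12484, 9875.5, 12784 and 12142. The medians over all probes were 79.75 to 97 in the control channel and 149.5 to 264 in the treated channel. Those are much dimmer spots, so they are no measure for a bright gene. Rfc1, of similar mean log2 intensity (11.81 against 11.94), had 1161 to 2363 in the control channel and 5213.5 to 9321.5 in the treated channel. Its loess ratio was 0.13. The lowest mean of Mcm4 over the alternative settings was 0.98 and its highest 2.12, and it passed in all 15 of them.

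The other ring subunits rose by similar amounts. Mcm6, whose promoter is printed above, had 0.46, 0.88, 0.68 and 0.68, with 0.67 ± 0.17 and an adjusted p of 0.0028. Replicate 1 was the lowest and replicate 2 the highest. Mcm3 had 0.41, 0.94, 0.73 and 0.52, and Mcm5 had 0.52, 0.70, 0.71 and 0.58, with means of 0.65 ± 0.24 and 0.63 ± 0.09. Mcm2 had 0.74, 0.38, 0.63 and 0.57, with replicate 2 the lowest here, and averaged 0.58 ± 0.15. Mcm7 had 0.49, 0.59, 0.62 and 0.36, with 0.52 ± 0.12.

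Of the GINS subunits, which join the ring to form the active helicase, 3 of 4 rose. Gins1 had 0.55, 0.99, 0.71 and 0.79, with 0.76 ± 0.18 and an adjusted p of 0.0022, second to Mcm4 under loess but not with Feature Extraction's ratios or under centring on the tested genes. Gins2 had 0.65, 0.53, 0.86 and 0.76, with 0.70 ± 0.15 and an adjusted p of 0.0020. Gins4 rose by 0.39 ± 0.07. Gins3, the brightest gene of the group that did not pass, had 0.35, −0.09, 0.54 and 0.49, with 0.32 ± 0.29 and an adjusted p of 0.076. Replicate 2 alone lay below 0, and without it the mean was 0.46 with an adjusted p of 0.0020.

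Mcm10, which helps start the helicase, had 0.40, 0.67, 0.56 and 0.70, with 0.59 ± 0.14 and an adjusted p of 0.0031. Cdc45, the remaining helicase subunit, did not pass: its ratios were 0.06, 0.05, 0.16 and 0.18, with 0.11 ± 0.07 and an adjusted p of 0.21. This probe was dim, with Cy3 intensities of 63.5 to 77 and Cy5 intensities of 115.5 to 197.5. Its ratio was −0.67, past the test, under centring on the tested genes.

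The group of polymerases, clamp and clamp loader had a median of 0.36, and 9 of its 16 genes rose while 7 did not pass. The genes of primase and polymerase alpha, which together make the primers, all rose, 4 of 4. Pola2, the accessory subunit of polymerase alpha, had 0.52, 0.64, 0.77 and 0.96, with 0.72 ± 0.19 and an adjusted p of 0.0027. Its intensities were low, from 77 to 92 in Cy3 and from 266 to 614.5 in Cy5. Its mean was 1.20 with Feature Extraction's ratios and 0.38 under centring on the tested genes, and it passed in both. The primase subunit gene Prim2 had 0.38, 0.75, 0.57 and 0.57, with 0.57 ± 0.15 and an adjusted p of 0.0040. Prim1, the catalytic primase subunit, had 0.31, 0.72, 0.50 and 0.41, with 0.49 ± 0.18 and an adjusted p of 0.0081. In both, replicate 2 was the highest and replicate 1 the lowest. Pola1, the catalytic subunit of the polymerase, rose by 0.24 ± 0.07 with an adjusted p of 0.029. That call did not hold with Feature Extraction's ratios (0.17, adjusted p of 0.17) or without replicates 1, 3 or 4.

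The catalytic subunits of the copying polymerases both rose. Pold1, of polymerase delta, had 0.49, 0.26, 0.48 and 0.49, with 0.43 ± 0.11, and replicate 2 stood apart below the other arrays. Pole, of polymerase epsilon, averaged 0.46 ± 0.15. A second probe of Pole, not well above background in Cy3 on any array, had −0.04 ± 0.29 and was not tested.

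Clamp and clamp loader genes were uneven. Pcna, the sliding clamp and the brightest gene of the group that did not pass, had 0.51, −0.07, 0.46 and 0.73, with 0.41 ± 0.34 and an adjusted p of 0.058. As with Gins3, replicate 2 lay below 0, and without it Pcna averaged 0.57 with an adjusted p of 0.0013. Of the 5 Rfc subunits, 2 rose. Rfc3 had 0.42, 0.85, 0.65 and 0.43, with 0.58 ± 0.20 and an adjusted p of 0.0059. Rfc4 averaged 0.31 ± 0.10 with an adjusted p of 0.017, a call that did not hold with Feature Extraction's ratios (0.28, adjusted p of 0.069) or without replicates 1, 3 or 4. Its second probe had 0.38 ± 0.23.

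The other Rfc subunits did not pass. Rfc1 and Rfc5 averaged 0.13 ± 0.07 and 0.15 ± 0.15. Rfc2 had the largest SD of the set under loess, with 0.04, −0.59, 0.32 and 0.31, a mean of 0.02 ± 0.43 and an adjusted p of 0.93. Without replicate 2 its mean was 0.23, and with Feature Extraction's ratios it was −0.0320.

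Single-stranded DNA behind the helicase is covered by replication protein A. Its large subunit gene Rpa1 had 0.36, 0.67, 0.49 and 0.40, with 0.48 ± 0.14 and an adjusted p of 0.0059. The gene of the middle subunit, Rpa2, had −0.50, 0.19, 0.23 and −0.49, with −0.14 ± 0.41 and an adjusted p of 0.51. The 4 arrays of Rpa2 fell on both sides of 0, with replicates 1 and 4 low. The 2 genes that finish lagging strand pieces did not pass either. The nuclease gene Fen1 had 0.02, 0.17, 0.29 and 0.14, and the ligase gene Lig1, which carries E2F letters, averaged 0.25 ± 0.28. Lig1 was highest in replicate 2, at 0.61, and without that replicate its mean was 0.13. The difference between Rpa1 and Rpa2 was not tested.

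Nucleotide supply had a median of 0.25, and 2 of its 4 genes rose. This was the lowest of the 4 group medians under loess but not under centring on all probes or on the tested genes, where origin licensing was lower. Tk1, the thymidine kinase of S phase, had 0.27, 0.07, 0.36 and 0.38, with 0.27 ± 0.14 and an adjusted p of 0.036. Rrm1, the large subunit of ribonucleotide reductase, had 0.14, 0.41, 0.19 and 0.25, with 0.25 ± 0.12 and an adjusted p of 0.040. With replicate 1, 3 or 4 left out, or with Feature Extraction's ratios, limma called 0 of the 4 genes, and at an unadjusted p under 0.05 it had 4, 1, 1 and 0 of them. The unpaired test called 1 of the 4. All 4 genes were above 0 on all arrays. Rrm2, the small subunit and the brightest that did not pass, had 0.03, 0.22, 0.19 and 0.32, with an adjusted p of 0.087. Tyms, which makes thymidylate, had 0.06, 0.56, 0.10 and 0.27, with replicate 2 the highest and an adjusted p of 0.098. Without replicate 2 the mean of Tyms was 0.14.

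Group medians were also set side by side on each array, under loess. The helicase median was 0.47, 0.63, 0.65 and 0.57, and the nucleotide supply median was 0.10, 0.31, 0.19 and 0.30, so the helicase was the higher on every array. Licensing lay at 0.43 to 0.49 and the polymerase group at 0.29 to 0.41, and the latter overlapped with nucleotide supply. These orders are descriptions of 4 arrays and were not tested. Ranked among all tested genes, the 36 genes had a median percentile of 88.5, with 17 above the 90th percentile and the lowest, Rpa2, at 26.6.

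**Figure D4:**
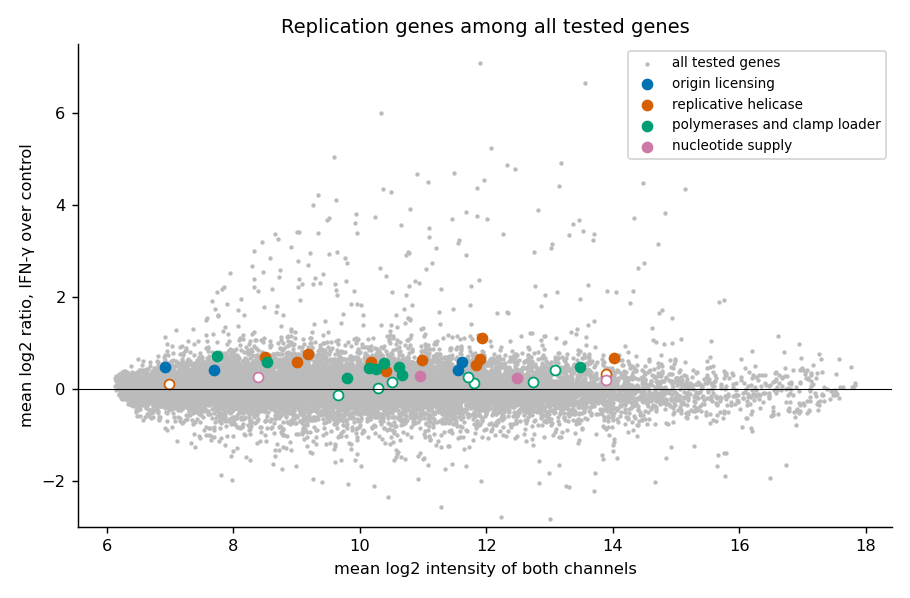
Mean log2 ratio of IFN-γ over control (vertical axis) against mean log2 intensity of both channels (horizontal axis, after background correction) for all 15673 tested genes in grey and the 36 replication genes in colour; filled circles passed the test. The replication genes span intensities from 6.92 to 14.02, and Mcm4 is the highest of them at 1.11.

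A wider list of 77 other replication genes was tested in the same fit and had a median of 0.29. Of these 41 rose, 5 fell and 31 missed the threshold, beside the 19.8% and 13.9% of all tested genes that rose and fell. The 5 became 3 without replicate 1 and 8 without replicate 2, where 8.29% and 19.0% of all tested genes fell. Among genes of origin recognition and firing control, 12 of 16 rose and 0 fell, with the same counts unadjusted and by the unpaired test. Under centring on the tested genes 2 fell. Ccne2, counted as risen, entered the test through Cy5 and was well above background in Cy3 on 2 of 4 arrays. With both channels required above background on all arrays, 10 of 13 rose, beside 21.8% of all genes tested there. Topbp1, a scaffold that helps bring Cdc45 and GINS to the ring, had 1.21, 1.17, 1.20 and 1.13, with 1.18 ± 0.04 and an adjusted p of 9.96e-05. Dbf4, the activator of the Cdc7 kinase, and Mtbp, a partner of the firing factor Treslin, rose by 0.76 ± 0.27 and 0.74 ± 0.08. Recql4, the brightest that did not pass, had 0.23 ± 0.24.

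Among the other helicase and fork protection genes 3 of 8 rose and 1 fell. Timeless and its partner Tipin, which protect the fork, rose by 0.76 ± 0.10 and 0.52 ± 0.12. Smarcal1, a fork remodeller, fell by 0.59 ± 0.12 on its brightest probe, while its second probe had −0.02 and centring on all probes gave 0.42. Mcmbp, which binds the Mcm ring, had 0.065 ± 0.12 on its brightest probe and did not pass, while its other probes had 0.41 and 1.40.

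Of 19 other polymerase, clamp and maturation genes 9 rose and 1 fell, the latter being Rnaseh2c, a subunit of RNase H2. Without replicates 3 or 4 the count that rose was 5 in each case, beside 10.2% and 11.5% of all tested genes. Without replicate 2 the count that fell was 3, beside 19.0% of all tested genes. Top2a, the topoisomerase that untangles copied DNA, rose by 1.01 ± 0.21, the nuclease gene Exo1 by 0.79 ± 0.24 and Dscc1, of an alternative clamp loader, by 0.75 ± 0.13. Pclaf, which binds Pcna, had −0.73, 0.88, −0.43 and −0.25, a mean of −0.14 ± 0.70, and a second probe at 0.38. Only replicate 2 of Pclaf lay above 0, and without it the mean was −0.47 with an adjusted p of 0.0068.

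Genes of chromatin assembly behind the fork rose in 6 of 9 cases, and 2 of 9 without replicate 3, beside 10.2% of all tested genes there. Without that replicate 6 of the 9 rose at an unadjusted p under 0.05, and the median was 0.52. Uhrf1, which helps copy DNA methylation, had 0.40, 1.41, 1.02 and 1.52 and averaged 1.09 ± 0.51, though its dim second probe had 0.18. The histone chaperone genes Asf1b and Nasp rose by 0.70 ± 0.21 and 0.58 ± 0.28. The call of Nasp did not hold without replicate 3 (adjusted p of 0.056) or replicate 4 (adjusted p of 0.060). Ssrp1, a subunit of the FACT chaperone, had 0.064 ± 0.14 and did not pass.

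The 12 other genes of nucleotide metabolism held the largest ratio of the wider list. Samhd1, which breaks down deoxynucleotides and is a known interferon-induced gene, had 3.45, 3.15, 3.53 and 3.27, with 3.35 ± 0.17 and an adjusted p of 7.30e-06, and its second probe had 2.86. Of the 12 genes 7 rose and 1, the nucleotide pyrophosphatase gene Dctpp1, fell. Without replicates 3 and 4 the counts that rose were 4 and 3, beside 10.2% and 11.5% of all tested genes. Without replicate 1 the count that fell was 0, beside 8.29% of all tested genes. Tk2, the mitochondrial thymidine kinase, rose by 0.59 ± 0.20. Dtymk, the thymidylate kinase, rose by 0.56 ± 0.24 on its brightest probe and had −0.51 on its second. Umps, of pyrimidine synthesis, had 0.21 ± 0.11 and did not pass (adjusted p of 0.057), but did without replicate 2 (0.018), by the unpaired test (0.031), with its probes averaged (0.047) and under both kinds of centring.

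Genes of the E2F and pocket protein families, which control the replication genes, gave 4 of 13 risen and 2 fallen with a median of −0.046, counts near the 19.8% and 13.9% of all tested genes. Under centring on all probes, where 67% of all tested genes rose, 13 of 13 did. E2f5 and the E2F partner Tfdp1 rose by 0.61 ± 0.08 and 0.53 ± 0.12. E2f2 fell by 0.69 ± 0.27 under loess and had 0.32 under centring on all probes. E2f8 was the other gene that fell. Without replicates 1 or 3, 1 gene fell, beside 8.29% and 5.91% of all tested genes. Without replicate 2, 3 fell, beside 19.0%. E2f6, the brightest that did not pass, had −0.15 ± 0.27.

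**Figure D5:**
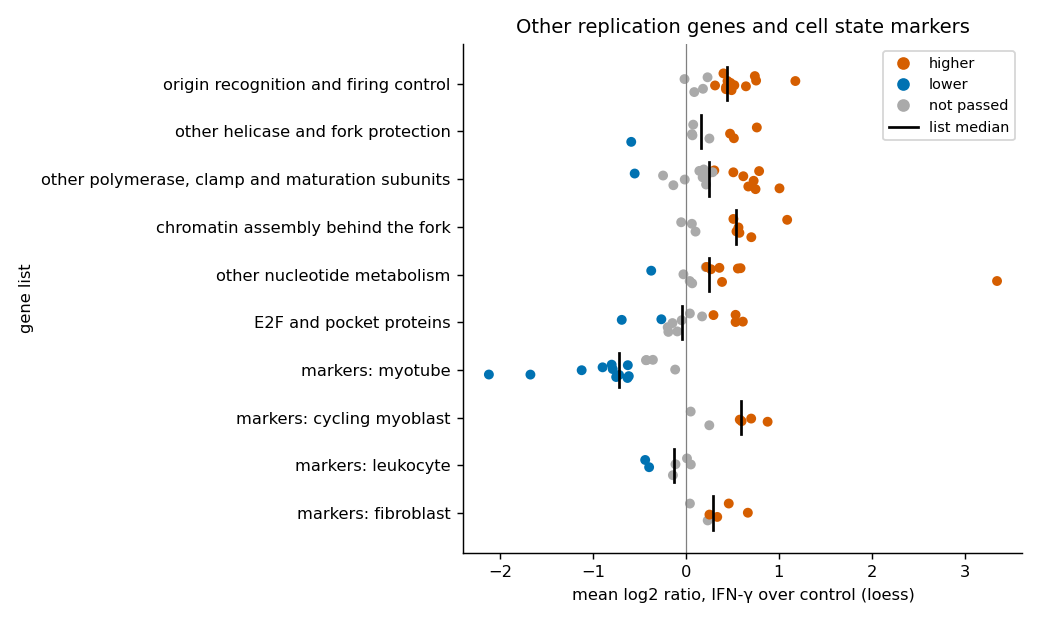
Mean log2 ratio of IFN-γ over control (horizontal axis, loess) for the genes of each list (rows), with 1 point per gene coloured by its call and a black line at the list median. Firing control genes centre on 0.44 and myotube markers on −0.72; Samhd1 stands alone at 3.35, and under centring on all probes the myotube median turned to 0.31 and the E2F median to 0.89.

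Markers of cell state moved on the same arrays, where 19.8% of all tested genes rose and 13.9% fell under loess. Of 15 myotube markers 11 fell and 0 rose in limma, unadjusted 12 fell and 0 rose, and the unpaired test gave 11 and 0. They had a median of −0.72, a range of −2.12 to −0.12 and array medians of −0.60, −1.12, −0.84 and −0.51. Under centring on all probes 8 of them rose and 2 fell, where 67% of all tested genes rose and 16.9% fell. Their median there was 0.31, below the 0.70 of all tested genes. Of 6 markers of cycling myoblasts 4 rose, namely Ccnd1 at 0.88, Mki67 at 0.70, Myf5 at 0.60 and Cdk1 at 0.58. Pax7 had 0.051. The count was 3 with Feature Extraction's ratios, by the unpaired test and without replicates 1, 3 or 4. It was 5 without replicate 2. Of all tested genes 13.2%, 25.9%, 10.2% and 11.5% rose without replicates 1, 2, 3 and 4. With Feature Extraction's ratios 19.2% of them rose, and by the unpaired test 16.4%. Mki67 had 0.38, 1.56, 0.29 and 0.57, with an adjusted p of 0.047 in limma, and 0.68 on its second probe. The other probes of Cdk1 had 0.60 and 0.17. Ccnb1 had 0.25 on its brightest probe, which did not pass, and 0.69 and 0.60 on its other probes, which did when tested on their own. Of 8 leukocyte markers 6 were tested, in a range of −0.44 to 0.052: 0 rose with limma, unadjusted or by the unpaired test. Under centring on all probes 3 of the 6 rose and 3 fell, beside the same 67% and 16.9% of all tested genes. Under loess Csf1r and Cd3e fell, and the other probes of Csf1r had 0.030 and −0.061. Of 7 fibroblast markers 6 were tested and 4 rose, or 2 without replicate 1 and 1 without replicates 3 or 4. The unpaired test also gave 1. All 15 myotube markers were bright enough to test, a filter that most leukocyte and fibroblast markers passed as well. The part of these shifts in the ratios of the replication genes was not tested.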

How the data were processed

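Total RNA (8 µg) of treated and control cells was hybridised to 4 two-colour Agilent mouse arrays on 1 slide. Per the file headers, the authors used Agilent Feature Extraction 10.7.3.1 to obtain median spot and local background intensities per channel, and the deposited files also hold log10 ratios of Cy5 over Cy3. The authors' value table is in log2; against the scanner's log10 ratios it had slopes of 3.32 (log2 of 10) and correlations of 0.999 to 1.00 over 28921 probes, so its direction is Cy5 over Cy3. Its column medians were −0.125 to −0.105. Gene values were the same as with Feature Extraction's ratios, as for Orc1 at 1.66 in both, so its centring is that of those ratios. Per the labels' design text, the authors selected genes with an unpaired test, Benjamini-Hochberg adjustment and a fold of 2.

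Intensities were corrected with normexp (offset 50) and normalised by loess within arrays in limma 3.58.1 under R 4.3.3, with control spots at weight 0 and outlier-flagged spots left out. Of 39429 probes, 26055 matched 1 gene symbol of the RefSeq gene table by accession, 13374 none and 0 several. Probes were tested if at least 3 of 4 arrays had 1 given channel well above background, and the brightest tested probe stood for its gene. Mean log2 ratios were tested against 0 with lmFit and eBayes, two-sided, and p-values adjusted over all 15673 tested genes. The fit was tested on simulated data, and no result of that is given here. The header's genome build differs from the gene table's, so no gene coordinates are given; promoter positions are those of RefSeq on GRCm38.p6.

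The 36 genes, the wider lists and the markers were chosen with earlier results of these data known. All 36 genes are accounted for; array values are written for the largest called changes per group (up to 4), for the brightest that did not pass, and for others chosen after their values were seen. Of each wider list, up to 3 called genes with the largest change and the brightest that did not pass are named, and any other name was chosen after its values were seen. Alternatives were other centring, Feature Extraction's ratios, the value table, other background, filter and probe rules, each replicate left out and the methods' unpaired test. Few arrays limit the precision.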

Additional observations from a re-analysis of the deposited data

Results flagged for a closer look

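In 3 of 60 genes examined, 1 of the 4 arrays stood apart, with a gap to its nearest neighbour, as a share of the gene's whole range, above Dixon's critical value for 4 samples; chance does this in about 1 of 20 groups. Pold1, of polymerase delta, had its lowest value in replicate 2, with a gap of 0.962 of the range. Tk2, the mitochondrial thymidine kinase, also had its lowest value in replicate 2, with a gap of 0.894. Timeless, the fork protection gene, had its highest value in replicate 3, with a gap of 0.884. Gins3 and Pcna, whose means were also given above without replicate 2, were not among these genes.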

How the results depend on the processing

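Of the 25 genes that rose, 18 did so in every one of the 15 alternatives that gave them a value. Among the 15, Feature Extraction's ratios and the authors' value table are near repeats of each other. All 11 genes that did not pass were called in at least 1 alternative, Cdc45 as lower. The others were all called higher under centring on all probes, where 67% of all tested genes rose. Rfc2, Rpa2 and Tyms were called in that setting alone. Centring on all probes gave 72 other replication genes risen and 2 fallen, 10506 of all genes risen, medians of 1.33 for the replication genes and 0.70 for all, and ratios of 0.73 for Rpa2, 0.42 for Smarcal1, 0.90 for Pclaf, 0.32 for E2f2 and 0.86 for E2f6. Centring on the tested genes gave 2 replication genes and 8 other replication genes fallen, 4707 of all genes risen and 5480 fallen, a median of 0.66 for the replication genes, and ratios of −0.34 for Orc1, −0.67 for Cdc45, 0.058 for Rpa2, 0.22 for Pclaf and 0.18 for E2f6. Rfc2 had −0.0320 with Feature Extraction's ratios and −0.0320 with the authors' value table. The median of all genes was 0.013 with both channels above background and 0.00921 with no filter. Averaging all tested probes, Pclaf had 0.12 and Ssrp1 −0.0888. With 1 replicate left out, the counts ran from 1595 (without replicate 3) to 4057 (without replicate 2) for all genes risen, 927 to 2979 (the same replicates) for all genes fallen, and 3 to 8 for other replication genes fallen, the ratio of Rfc2 from −0.077 to 0.23 and that of Pclaf from −0.47 to 0.063. The methods' unpaired test gave 23 of the 36 genes as risen, 1 of them by 2-fold or more, and left out Pold1 and Tk1. The cause of these shifts was not tested. In every setting the dye effect and the treatment effect cannot be told apart. The calls of the dim genes Orc1, Cdc6 and Cdc45 changed with centring on the tested genes.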
